A study of Mus musculus with 6 samples.

Results

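Retinoic acid is made from vitamin A inside cells, and 9 genes that make it, carry its precursor, bind it or break it down are described here in infarcted mouse cortex. They were taken by gene name from a table of 56748 genes. The set holds 4 synthesis enzymes (Rdh10, Aldh1a1, Aldh1a2 and Aldh1a3), 4 genes for carriers, uptake and binding (Rbp4, Stra6, Crabp1 and Crabp2) and 1 breakdown enzyme (Cyp26b1). All 9 passed the filter on low counts, as did 17584 genes of the table. The genes were chosen by pathway membership and with their measured difference between PLEA and saline already known, so their values in that comparison describe the pattern and are not a test of it.

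The tissue was cortex labelled as infarcted, from male wild-type C57 mice. In each mouse a photothrombotic stroke, a clot set off in surface vessels by laser light after an injected agent, was made in the left hemisphere. The saline group (3 libraries) received 100 µL of saline and the PLEA group (3 libraries) 100 µL of PLEA nanoparticles through the tail vein 2 hours after the clot was made, and both were sampled at day 3. The labels do not explain PLEA, give no age, and do not say whether each library is a different animal. The spread within a group therefore cannot be read as spread between animals. Counts of libraries within a group differed by more than counting error (chi-square per degree of freedom 13.9 to 53.2 for pairs of libraries). No tissue without a stroke was analysed here. Library totals ranged from 16810448 to 17516434 counts. Levels are given as CPM, counts scaled to a common library total. Markers of cortical neurons were present in every library (899.9 to 1683 CPM, summed over 6 genes). Saline replicate 2 stood apart: its striatal neuron markers summed to 239.5 CPM against 967.5 to 2283 in the other libraries, and its Otx2 level was 17.8 CPM against at most 2.85.

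Retinol travels in blood bound to RBP4 and can enter cells through the receptor STRA6. RDH10 oxidises it to retinaldehyde, and the enzymes ALDH1A1, ALDH1A2 and ALDH1A3 turn retinaldehyde into retinoic acid. CRABP1 and CRABP2 bind retinoic acid in the cytoplasm, CYP26 enzymes degrade it, and nuclear receptors of the RAR and RXR families carry its signal to genes. In the brain, Aldh1a2 is known as a gene of the meninges, the membranes over the cortex, and Aldh1a1 as a gene of a subset of midbrain dopamine neurons.

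None of the 9 genes passed the adjusted threshold between PLEA and saline. The PLEA levels lay below the saline levels in Aldh1a1 and Aldh1a2, which make retinoic acid, in Crabp2, which binds it, and in Cyp26b1, which breaks it down, while the groups overlapped in the other 5 genes. Of the 9 genes, 7 had a negative log2 fold change and 2 a positive one, with a median of -0.27 against -0.0051 for all genes tested. In 4 of the 9 (Aldh1a1, Aldh1a2, Crabp2 and Cyp26b1) every PLEA library lay below every saline library, and in none did every PLEA library lie above. Over all genes tested, 8963 of 17584 had a negative log2 fold change, and 5.54% separated in the lower and 5.16% in the higher direction. The same 4 genes had an unadjusted p under 0.05 in edgeR's quasi-likelihood test, as did 3.58% of all genes in the lower and 2.28% in the higher direction. After Benjamini-Hochberg adjustment edgeR called 0% of genes in either direction, and none of the 9. DESeq2 called 0.238% of genes lower and 0.0258% higher, and its lower calls included Aldh1a1 and Aldh1a2. Since this comparison chose the genes, nothing is read from these counts.

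**Figure D1:**
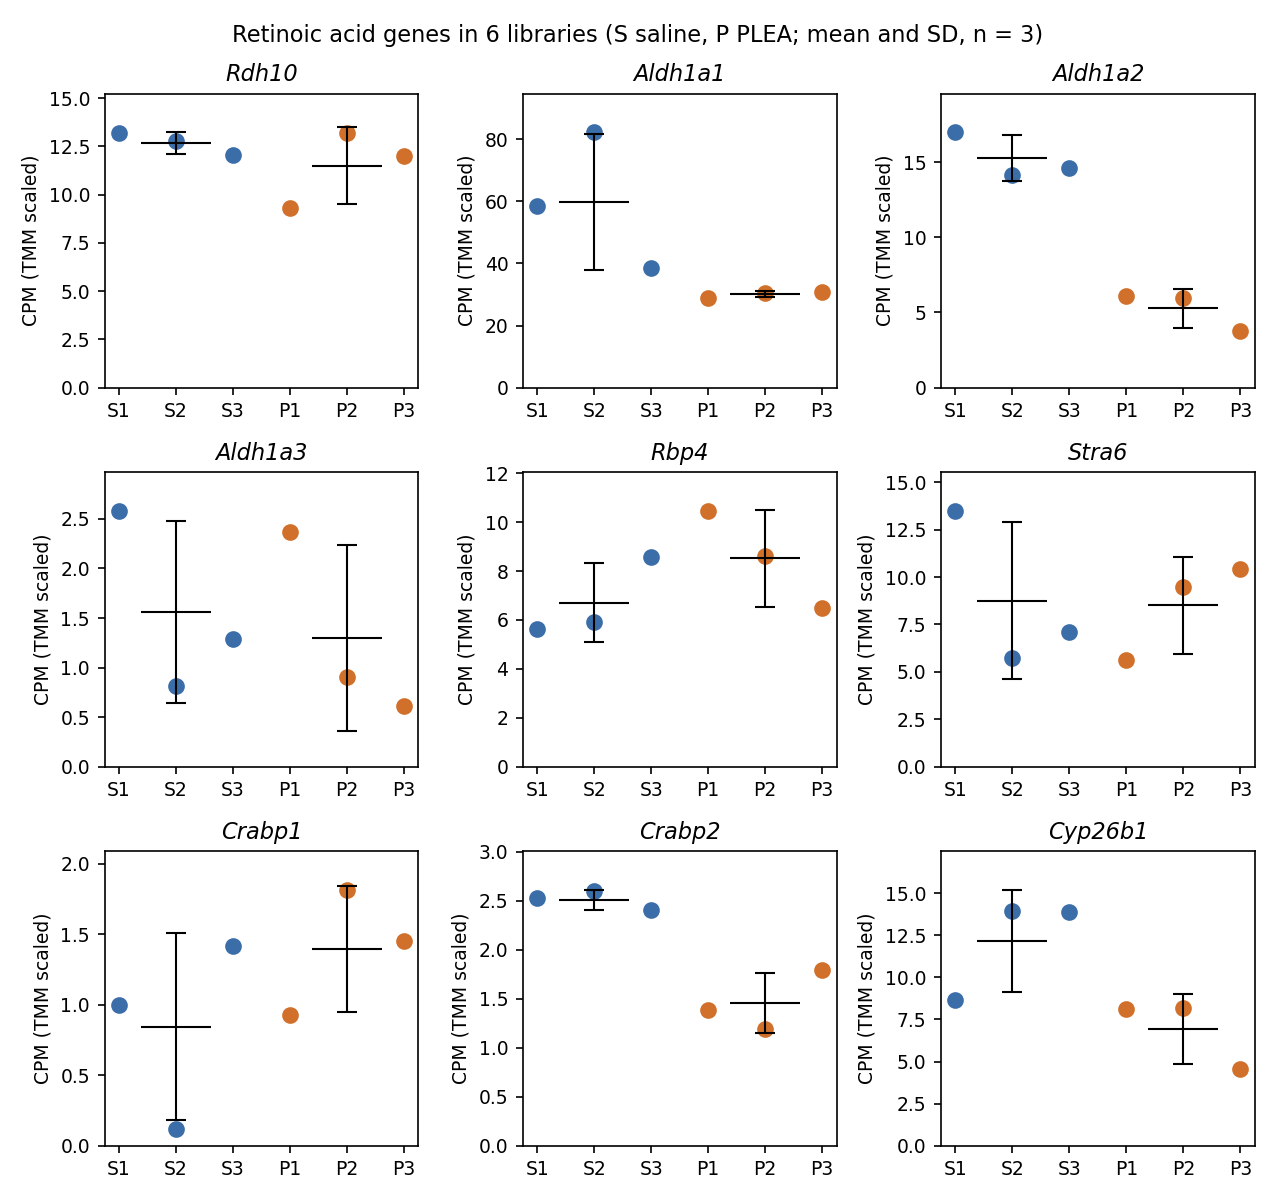
Each panel plots 1 gene, with the 6 libraries along the horizontal axis (S saline, P PLEA, with the replicate number) and CPM scaled by library total and TMM factor on the vertical axis, which starts at 0. Points are libraries, long bars the group mean and whiskers the SD (n = 3). In Aldh1a1, Aldh1a2, Crabp2 and Cyp26b1 the PLEA points all lie under the saline points, and in the other 5 genes the groups overlap.

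Aldh1a2 stood furthest apart. Saline replicates 1, 2 and 3 held 17.0, 14.2 and 14.6 CPM, and PLEA replicates 1, 2 and 3 held 6.13, 5.95 and 3.80 CPM. Every gene below is listed in that order. The saline libraries thus lay close together and the highest PLEA library was well under the lowest saline one. The means were 15.3 ± 1.54 CPM (SD, n = 3) and 5.29 ± 1.29 CPM (SD, n = 3), a log2 fold change of -1.53 (SE 0.22, 95% interval -2.04 to -1.01), or 0.347 of the saline level. Its p ranked 3 among all genes in edgeR, with an adjusted p of 0.574, and DESeq2 gave an adjusted p of 1.24e-05. The call therefore depends on the tool and, as edgeR without the filter on low counts gave 0.0133, on the filter. Without each library in turn the log2 fold change of Aldh1a2 stayed between -1.66 and -1.34. In the deposited table the gene (ENSMUSG00000013584) spans bases 71123071 to 71203525 of chromosome 9, plus strand.

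Aldh1a1 was the most abundant of the 9 genes per length of transcript in saline. Its levels were 58.6, 82.3 and 38.5 CPM in saline and 29.0, 30.6 and 30.7 CPM in PLEA. The PLEA libraries were nearly alike, whereas saline libraries differed widely, with replicate 2 the highest and replicate 3 the closest to PLEA. Means were 59.8 ± 21.9 CPM (SD, n = 3) and 30.1 ± 0.962 CPM (SD, n = 3), a log2 fold change of -0.99 (SE 0.24, 95% interval -1.55 to -0.43), with adjusted p = 0.818 in edgeR and 0.0483 in DESeq2. Leaving out saline replicate 2 gave -0.70 and leaving out saline replicate 3 gave -1.24. Aldh1a1 (ENSMUSG00000053279) spans bases 20470079 to 20620829 of chromosome 19, plus strand. Its transcript shares 88.9% identity over 2069 bases with Aldh1a7, which had 5 to 42 counts per library against 502 to 1424 for Aldh1a1. On the opposite strand lies C730002L08Rik, with 59616 bases of shared span, no shared exon bases in the GENCODE M21 annotation, and 213, 104 and 190 counts in saline and 270, 241 and 253 in PLEA, higher in each PLEA library. Whether the authors' counting used strand is not given in the sources used here, so reads of that gene within the introns cannot be told from its own.

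Aldh1a3 was scarce, with 44, 14 and 21 counts in saline and 41, 16 and 11 in PLEA. Its levels of 2.58, 0.809 and 1.29 CPM in saline and 2.37, 0.907 and 0.615 CPM in PLEA overlapped, and replicate 1 was the highest in both groups. The log2 fold change of -0.27 had a 95% interval from -1.64 to 1.11, so no difference was detectable with so few counts and this spread between libraries. It turned to 0.31 without saline replicate 1 and to 0.069 without PLEA replicate 3. The gene (ENSMUSG00000015134) lies at bases 66040638 to 66077265 of chromosome 7, minus strand.

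Added together per kilobase of gene length, the 3 dehydrogenase genes reached 19.9, 23.1 and 14.5 CPM per kilobase in saline and 9.09, 9.02 and 8.04 in PLEA. Every saline sum was thus above every PLEA sum. Aldh1a1 made up 59.5%, 72.2% and 53.7% of that sum in saline and 64.6%, 68.7% and 77.5% in PLEA. Aldh1a2 made up 37.7%, 27.1% and 44.4% in saline and 29.7%, 29.1% and 20.9% in PLEA. These shares overlapped between the groups, so the mix of the 2 main enzymes did not separate them. That the totals did follows from Aldh1a1 and Aldh1a2, which each separated the groups and were chosen with that difference known. Aldh1a3 held 0.759% to 5.64% of the sum.

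**Figure D2:**
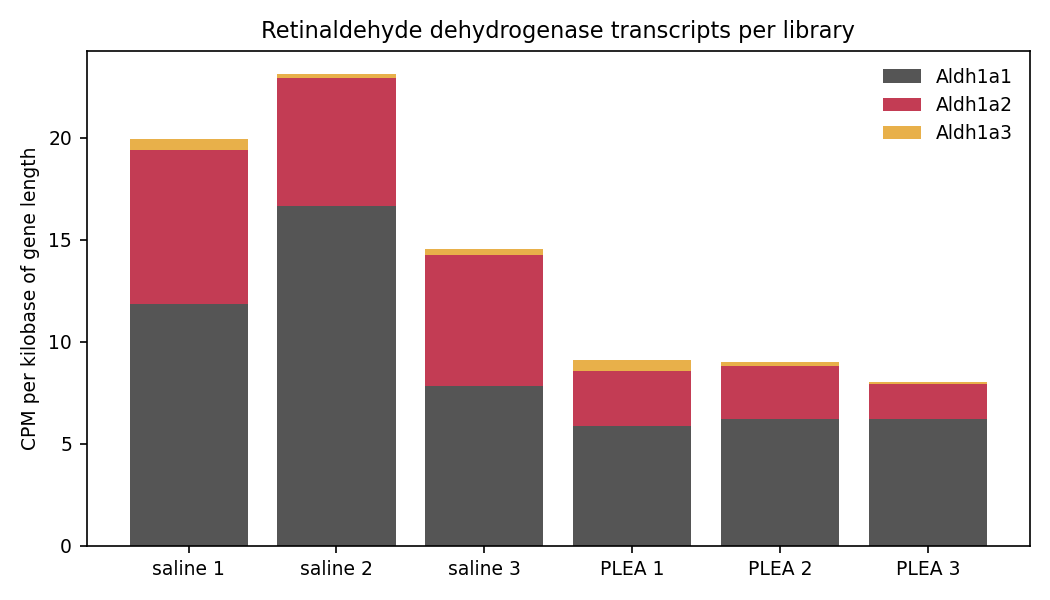
Stacked bars give the level of the 3 retinaldehyde dehydrogenase genes in each library, in CPM per kilobase of the deposited gene length, from 0. The saline bars reach 14.5 to 23.1 and the PLEA bars 8.04 to 9.09, with Aldh1a1 the largest segment in each library.

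Promoter sequence was set beside the genes that separated the groups because every PLEA library lay below every saline one in each of them. RefSeq windows on GRCm38.p6 (250 bases before to 50 after a transcript start) were found for 6 of the 9 genes, 11 windows in all. Names only are given for Aldh1a3, Rdh10 and Crabp2. Shown are the 150 bases before the start for 3 genes of the 4, 5′ to 3′, with the octamer ATGCAAAT, CCAAT and TATAAA in capitals. Aldh1a1 had several annotated starts, and the window shown was picked because it holds an octamer. The other Aldh1a1 window held none of these motifs. The closing capitals of the Aldh1a1 window shown begin a CCAAT that runs across the start. The windows lie at chr9:71215639-71215788 (plus strand), chr19:20601818-20601967 (plus strand) and chr6:84593811-84593960 (minus strand).
Aldh1a2: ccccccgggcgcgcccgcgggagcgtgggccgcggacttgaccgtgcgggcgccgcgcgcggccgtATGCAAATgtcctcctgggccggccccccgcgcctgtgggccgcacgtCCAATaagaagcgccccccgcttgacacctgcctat
Aldh1a1: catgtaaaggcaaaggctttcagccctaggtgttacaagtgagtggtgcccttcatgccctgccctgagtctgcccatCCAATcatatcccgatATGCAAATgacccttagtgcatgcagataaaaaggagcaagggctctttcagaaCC
Cyp26b1: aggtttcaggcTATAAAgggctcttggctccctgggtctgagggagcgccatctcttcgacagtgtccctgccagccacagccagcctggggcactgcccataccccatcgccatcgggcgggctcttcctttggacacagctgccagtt

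The Aldh1a2 and Aldh1a1 windows both held the octamer and CCAAT, at -84 and -36 from the start in Aldh1a2 and at -56, -72 and -2 in Aldh1a1, with the octamer first. Searched on both strands with exact letters, the octamer stood in 1.74% and CCAAT in 37.4% of 32817 windows of 300 bases, and both together in 0.859%. Of the 11 windows of these genes, 2 held both, the Aldh1a2 and Aldh1a1 windows shown. These motifs and TATAAA (13.6% of windows, at -139 in Cyp26b1 and at -28 in an Rbp4 window) were looked for after the sequences had been seen. The sequences otherwise differed: the 300-base Aldh1a2 window was 78.0% G and C with 50 CpG pairs, the Aldh1a1 window 47.0% with 1, and the Cyp26b1 window 62.3% with 9, against medians of 52.7% and 7. The half-site of retinoic acid receptors, AGGTCA, was in none of the 11 windows and in 16.3% of all windows. Its variant AGTTCA was in 1 window, of Stra6, and in 14.0% of all. Direct repeats AGGTCANAGGTCA, AGGTCANNAGGTCA and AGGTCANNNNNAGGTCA were in 0.0396%, 0.00914% and 0.00914% of all windows, and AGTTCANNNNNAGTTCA in 0.0244%, with none in these 11. A match or its absence describes these letters in these windows only.

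Rdh10, which makes the retinaldehyde that the dehydrogenases use, did not separate the groups. It was at 13.2, 12.8 and 12.1 CPM in saline and 9.30, 13.2 and 12.0 CPM in PLEA. PLEA replicate 1 was low and the other two PLEA libraries lay among the saline ones. The log2 fold change was -0.14 (SE 0.18, 95% interval -0.55 to 0.27), and -0.019 without PLEA replicate 1. Rdh10 (ENSMUSG00000025921) spans bases 16175998 to 16203958 of chromosome 1, plus strand.

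Among the other retinol and retinaldehyde enzymes, 27 genes in the list, 15 were tested, 10 had a negative log2 fold change and 0 passed the adjusted threshold (median -0.12). Rdh13, a mitochondrial retinol dehydrogenase, was at 19.7, 16.8 and 21.2 CPM in saline and 21.2, 34.2 and 24.6 CPM in PLEA (log2 fold change 0.47, SE 0.20, edgeR adjusted p = 0.818). That value was 0.25 without PLEA replicate 2. Rdh12 had 0.59 (SE 0.36) and Dgat1, which can esterify retinol, 0.26 (SE 0.13), both with an edgeR adjusted p over 0.05. In both genes each PLEA library was higher than any saline one. For Rdh12 the groups almost met, with 18, 11 and 14 counts in saline and 19, 27 and 22 in PLEA. In this list 2 genes separated in the higher and 1 in the lower direction, against 5.16% and 5.54% of all genes tested. Dhrs3, which returns retinaldehyde to retinol, had -0.57 (SE 0.32), and -0.20 without saline replicate 1. Rdh11 and Rdh14, also retinaldehyde reductases, had -0.13 (SE 0.16) and -0.05 (SE 0.15).

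Rbp4, the blood carrier of retinol, was at 5.63, 5.90 and 8.56 CPM in saline and 10.5, 8.61 and 6.48 CPM in PLEA. The groups overlapped because PLEA replicate 3 lay between the saline values. The log2 fold change of 0.35 (SE 0.26) had a 95% interval from -0.24 to 0.94, and was 0.17 without PLEA replicate 1 and 0.55 without saline replicate 3. Rbp4 (ENSMUSG00000024990) lies at bases 38105077 to 38113729 of chromosome 19, minus strand.

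Stra6, the receptor for RBP4, was at 13.5, 5.72 and 7.08 CPM in saline and 5.61, 9.46 and 10.5 CPM in PLEA. The highest and nearly the lowest level were both in the saline group. Its log2 fold change of -0.04 (SE 0.36, 95% interval -0.87 to 0.79) ran from -0.28 without saline replicate 2 to 0.42 without saline replicate 1. Stra6 (ENSMUSG00000032327), at bases 57971071 to 58061279 of chromosome 9, plus strand, shares 55036 bases of span with Ccdc33 on the opposite strand, which had 9 to 29 counts per library.

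Crabp2, which hands retinoic acid to nuclear receptors, was at 2.52, 2.60 and 2.40 CPM in saline and 1.39, 1.19 and 1.79 CPM in PLEA. Saline libraries were tight and lay above each PLEA library. This rests on 39 to 45 counts in saline and 21 to 32 in PLEA, and the log2 fold change was -0.78 (SE 0.29, 95% interval -1.46 to -0.11, edgeR adjusted p = 0.818). The gene (ENSMUSG00000004885) spans bases 87855973 to 87860683 of chromosome 3, plus strand.

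Crabp1, the other cytoplasmic binding protein, pointed the opposite way, with values resting on 1 library. It was at 0.997, 0.116 and 1.42 CPM in saline and 0.925, 1.81 and 1.45 CPM in PLEA. Saline replicate 2, with 2 counts, was far below the other 5 libraries, which had 16 to 32 counts. The log2 fold change of 0.73 (SE 0.67, 95% interval -0.80 to 2.27) was 0.21 without that library. Crabp1 (ENSMUSG00000032291) lies at bases 54672032 to 54680394 of chromosome 9, plus strand.

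The list of other retinoid carriers and uptake genes held 10 genes, of which 6 were tested, 4 had a negative log2 fold change and 0 passed the adjusted threshold (median -0.46). Cd36, a scavenger receptor of lipids, had 62, 22 and 22 counts in saline and 22, 19 and 17 in PLEA, so the groups met at 22 counts (log2 fold change -0.92, SE 0.47, and -0.25 without saline replicate 1). Fabp5, which can carry retinoic acid to another nuclear receptor, had -0.46 (SE 0.28), and -0.014 without saline replicate 1. Lrp2, an uptake receptor for RBP4 in epithelia, had 0.91 (SE 0.55). Ttr, the partner of RBP4 in blood and a product of the choroid plexus, was at 0.0587, 1.56 and 0.492 CPM in saline and 0.173, 5.55 and 280.6 CPM in PLEA. Its log2 fold change of 7.06 (SE 2.19) was 2.01 without PLEA replicate 3, the library in which choroid plexus markers were highest (77.6 CPM summed over 10 genes, against 8.62 to 48.1 in the others).

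Cyp26b1, which inactivates retinoic acid, was at 8.68, 13.9 and 13.9 CPM in saline and 8.15, 8.16 and 4.53 CPM in PLEA. The groups did not overlap, though saline replicate 1 lay just above the higher PLEA libraries. Means were 12.2 ± 3.02 CPM (SD, n = 3) and 6.95 ± 2.09 CPM (SD, n = 3), a log2 fold change of -0.81 (SE 0.29, 95% interval -1.47 to -0.14, edgeR adjusted p = 0.818). Leaving out PLEA replicate 3 gave -0.58 and leaving out saline replicate 1 gave -0.99. Cyp26b1 (ENSMUSG00000063415) lies at bases 84548396 to 84570890 of chromosome 6, minus strand. Its family members Cyp26a1 and Cyp26c1 were under the filter, at mean levels of 0.0769 and 0.0394 CPM. Of 6 other genes listed for breakdown, 2 were tested. Cyp1b1, an enzyme that can act on retinoids, was at 11.9, 7.28 and 12.2 CPM in saline and 5.37, 7.25 and 5.14 CPM in PLEA (log2 fold change -0.82, SE 0.26), where saline replicate 2 and PLEA replicate 2 almost met. Cyp2s1 had a log2 fold change of -0.50 (SE 0.30).

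**Figure D3:**
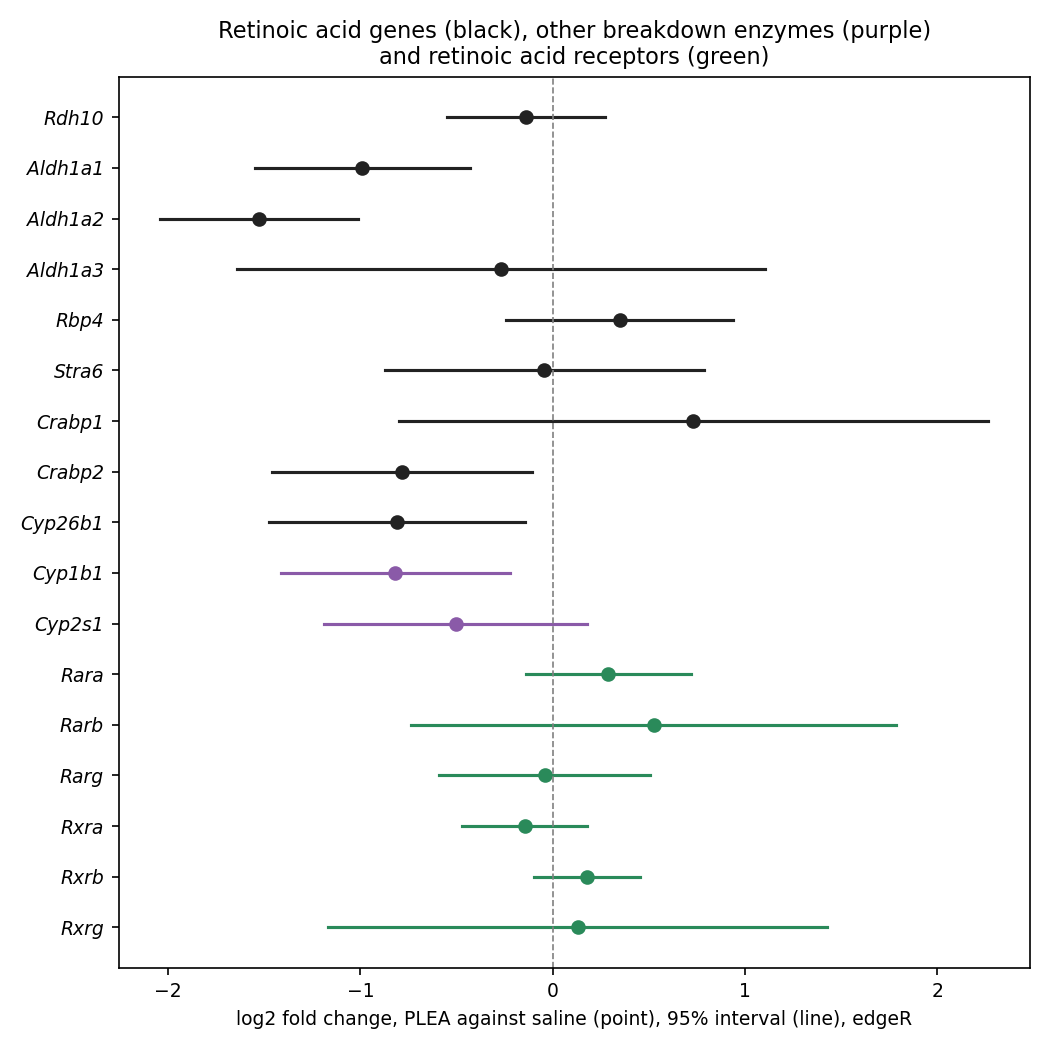
Points are log2 fold changes of PLEA against saline from edgeR and lines their 95% intervals, with a dashed line at 0. Shown are the 9 retinoic acid genes (black), 2 other genes listed for breakdown (purple) and 6 receptors (green). What the purple genes do to retinoic acid in this tissue was not measured. The intervals of Aldh1a1, Aldh1a2, Crabp2, Cyp26b1 and Cyp1b1 lie below 0, and those of all 6 receptors include 0.

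Per kilobase of gene length, the order of levels in saline was Aldh1a1 (12.1 ± 4.44 CPM per kilobase, SD, n = 3), Aldh1a2 (6.74 ± 0.680), Rbp4 (4.98 ± 1.20), Rdh10 (3.05 ± 0.138), Cyp26b1 (2.27 ± 0.565), Crabp2 (1.90 ± 0.0765), Stra6 (1.50 ± 0.712), Crabp1 (1.05 ± 0.827) and Aldh1a3 (0.338 ± 0.198). Aldh1a2 and Rbp4 overlapped between libraries, and so did each neighbouring pair from Cyp26b1 to Aldh1a3. In PLEA the order began with Rbp4 (6.34 ± 1.48) and Aldh1a1 (6.10 ± 0.195), which overlapped, and Aldh1a2 (2.34 ± 0.572) came after Rdh10 (2.77 ± 0.480), also with overlap. Crabp1 (1.74 ± 0.557), Stra6 (1.46 ± 0.439), Cyp26b1 (1.30 ± 0.391) and Crabp2 (1.10 ± 0.231) followed with overlapping ranges, and Aldh1a3 (0.281 ± 0.204) was again the lowest.

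The 6 receptor genes showed no separation: none had an unadjusted p under 0.05 in edgeR, 4 had a positive and 2 a negative log2 fold change, and the groups overlapped in each. Rara had a log2 fold change of 0.29 (SE 0.19), Rarg -0.04 (SE 0.24), Rxra -0.15 (SE 0.14) and Rxrb 0.18 (SE 0.12). Rarb, a receptor that is itself a target of retinoic acid, was at 7.98, 3.01 and 19.6 CPM in saline and 10.6, 17.4 and 15.9 CPM in PLEA. Rxrg was at 19.1, 4.28 and 34.5 CPM in saline and 18.6, 19.5 and 25.2 CPM in PLEA. Both were lowest in saline replicate 2 and highest in saline replicate 3, the libraries with the lowest and highest striatal neuron markers. Their log2 fold changes of 0.53 (SE 0.55) and 0.13 (SE 0.57) became 0.088 and -0.35 without saline replicate 2.

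Of 26 known target genes of retinoic acid in the list, 16 were tested, 12 had a negative log2 fold change and 0 passed (median -0.18). The adaptor gene Skap2 had -0.73 (SE 0.30), which shrank to -0.35 without saline replicate 1. Rarres1, a retinoic acid responder gene, had -0.73 (SE 0.39) at under 1 CPM in each library, with the PLEA libraries all below the saline ones. The transcriptional repressor Hic1 had -0.65 (SE 0.38). The abundant homeobox gene Meis2 (0.30, SE 0.31) and the zinc finger gene Tshz1 (-0.04, SE 0.19) overlapped between the groups. Among 17 receptor cofactors, all tested, 12 were negative and 0 passed (median -0.04). The orphan receptors Nr2f1 and Nr2f2 had -0.61 (SE 0.26) and -0.52 (SE 0.28), and Zbtb16, which encodes the repressor PLZF, 0.55 (SE 0.29). These were -0.37 without PLEA replicate 2, -0.24 without saline replicate 2 and 0.29 without saline replicate 1, in that order. The co-repressor Ncor1 had -0.06 (SE 0.11), the co-activators Ncoa1 and Med1 -0.03 (SE 0.12) and 0.18 (SE 0.10), and the deacetylase Hdac3 -0.01 (SE 0.11). Over all 86 listed genes outside the 9, 58 were tested, and 19 were higher and 39 lower in PLEA, with a median of -0.06. Of these, 5 had an unadjusted p under 0.05 in edgeR and 0 passed after adjustment. Among all 17584 genes tested, 8963 were lower. In edgeR 3.58% had an unadjusted p under 0.05 in the lower and 2.28% in the higher direction.

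Markers of the meninges were lower in PLEA along with Aldh1a2. All 15 genes of that list had a negative log2 fold change (median -1.05), 12 of them with no overlap. Among all genes tested, 8963 of 17584 were negative and 5.54% lay lower with no overlap. None of the 15 passed the adjusted threshold, and none was at 0 in every library. Summed, they reached 211.3, 146.3 and 148.7 CPM in saline and 94.3, 73.4 and 67.0 CPM in PLEA. Aldh1a2 per 100 CPM of these markers was 8.05, 9.68 and 9.81 in saline and 6.50, 8.10 and 5.68 in PLEA, which overlapped, with means of 9.18 ± 0.980 (SD, n = 3) and 6.76 ± 1.23 (SD, n = 3). Crabp2 per 100 CPM of the same markers was 1.19, 1.78 and 1.61 in saline and 1.47, 1.62 and 2.67 in PLEA, also with overlap. These ratios and those to other lists were added after the values had been seen, and the part of the meninges in the differences was not tested. In such bulk tissue fewer cells of a type and less RNA per cell cannot be told apart.

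Other lists varied with other genes of the pathway. Markers of oligodendrocytes (5 genes, all negative, none passing) summed to 3280, 4702 and 3084 CPM in saline and 3136, 2198 and 2966 CPM in PLEA, and were highest in saline replicate 2, as Aldh1a1 was. Aldh1a1 per 100 CPM of these was 1.78, 1.75 and 1.25 in saline and 0.925, 1.39 and 1.04 in PLEA, with overlap. Markers of midbrain dopamine neurons summed to 53.4, 107.7 and 55.1 CPM in saline and 51.7, 44.5 and 43.5 CPM in PLEA. That sum was also highest in saline replicate 2, as were Th, Ddc, Slc18a2 and En1. The dopamine transporter gene Slc6a3 had 38 counts there against 1 to 9 elsewhere. Nr4a2 was not highest there, at 39.8, 25.0 and 30.2 CPM in saline and 37.4, 8.95 and 12.6 CPM in PLEA. It made up most of the sum in saline replicates 1 and 3 and PLEA replicate 1, so there the sum mainly gives Nr4a2. Pitx3 had at most 1 count. Aldh1a1 per 100 CPM of the dopamine neuron markers was 109.7, 76.4 and 69.9 in saline and 56.2, 68.8 and 70.7 in PLEA, with overlap. Per 100 CPM of meninges markers it was 27.7, 56.3 and 25.9 in saline and 30.8, 41.7 and 45.9 in PLEA, also with overlap. Interneuron markers summed to 774.6, 1251 and 1515 CPM in saline and 1111, 1392 and 1279 CPM in PLEA. Cyp26b1 per 100 CPM of them was 1.12, 1.11 and 0.918 in saline and 0.734, 0.586 and 0.354 in PLEA, with no overlap. That ratio is mainly to Gad1 (327.0 to 652.6 CPM) and Gad2 (260.0 to 644.9 CPM), which made up most of the interneuron sum in each library. Per 100 CPM of meninges markers, however, Cyp26b1 was 4.11, 9.52 and 9.35 in saline and 8.65, 11.1 and 6.76 in PLEA, with overlap. Markers of microglia and macrophages (6 genes, all negative, none passing) summed to 499.3, 169.3 and 216.1 CPM in saline and 253.8, 86.9 and 159.7 CPM in PLEA. They were highest in saline replicate 1, as were Cd36, Fabp5, Dhrs3 and Skap2. The marker sums of meninges, astrocytes, mural cells and endothelium (319.5 CPM) were also highest in that library, so these genes are not tied to a single list. Negative log2 fold changes were also common in the lists of astrocytes (6 of 6, median -0.51), mural cells (6 of 6, median -0.36) and fibroblast matrix (6 of 8, median -0.82, with Col6a1 and Postn positive), none passing. Their sums were 3434 to 6222 CPM in saline against 2908 to 4029 in PLEA for astrocytes, 225.0 to 344.6 against 177.7 to 216.1 for mural cells, and 203.8 to 343.9 against 251.5 to 308.9 for fibroblast matrix. The part of each cell type in these values was not tested.

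**Figure D4:**
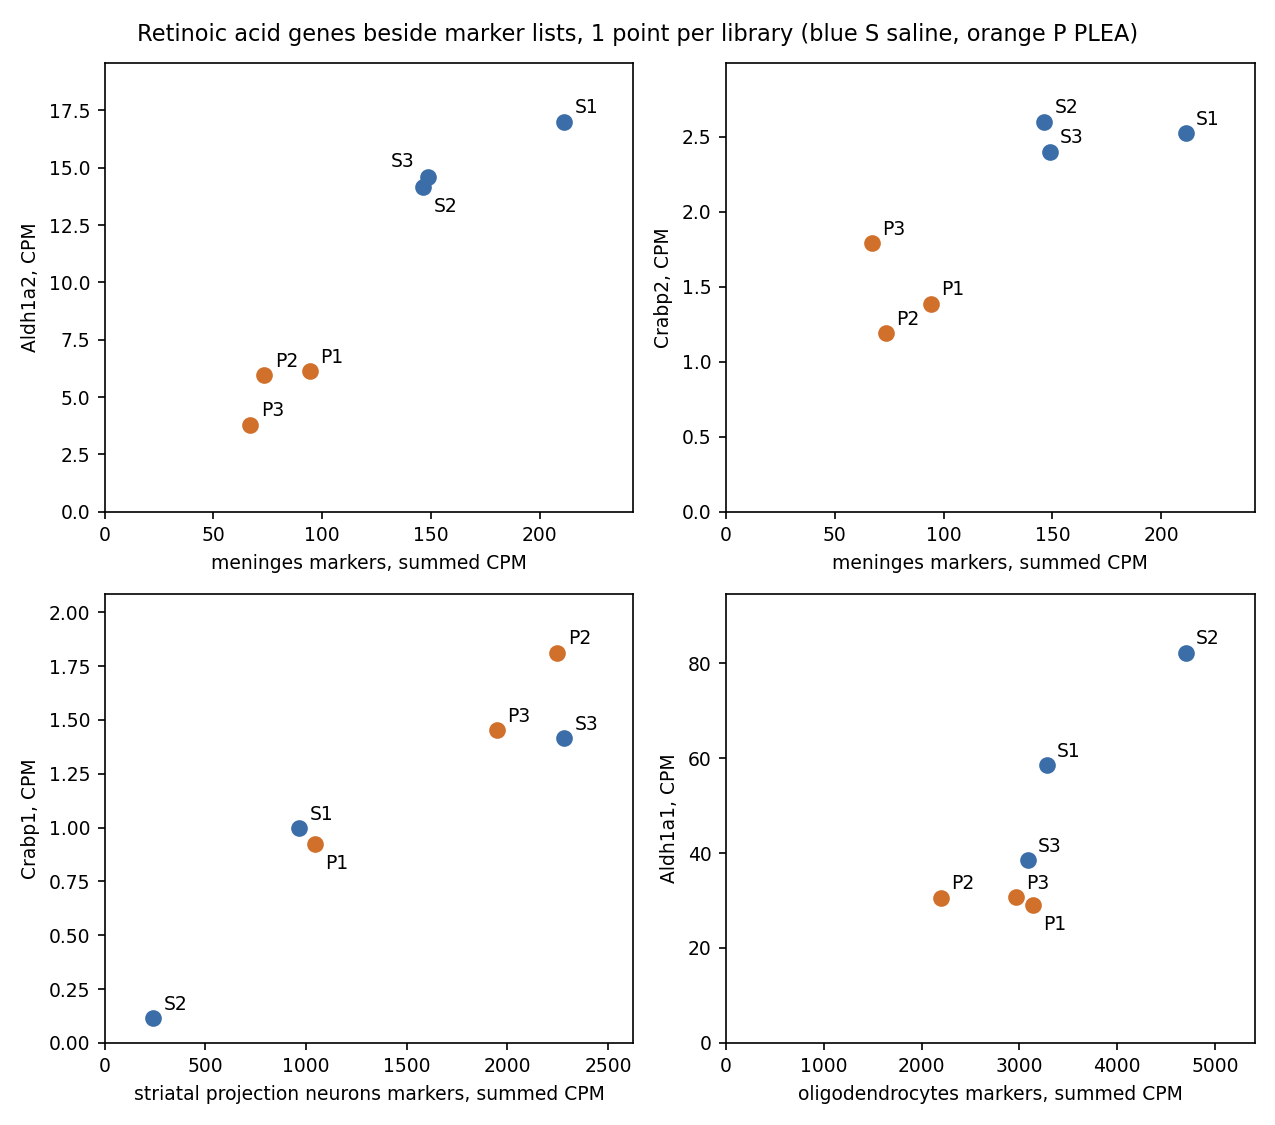
Each panel sets the CPM of 1 gene (vertical axis) against the summed CPM of a marker list (horizontal axis), with 1 point per library (S saline in blue, P PLEA in orange). Aldh1a2 and the meninges markers separate the groups on both axes, Crabp1 and the striatal markers are both lowest in saline replicate 2, and Aldh1a1 and the oligodendrocyte markers are both highest there.

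Crabp1 tracked striatal neuron genes across the 6 libraries. Of 13137 genes at a mean log2 CPM of at least 1, those most like it by Pearson correlation of log2 CPM were Kctd1 (0.997), the dopamine receptor gene Drd1 (0.997), Kcnip2 (0.996), Epyc (0.995) and Ppp1r1b (0.994). Crabp1 itself had only 2 to 32 counts per library. Markers of striatal projection neurons summed to 967.5, 239.5 and 2283 CPM in saline and 1046, 2248 and 1946 CPM in PLEA, with all 9 genes positive and none passing (median 0.51). Crabp1 per 100 CPM of these markers was 0.103, 0.0483 and 0.0620 in saline and 0.0884, 0.0807 and 0.0747 in PLEA, with overlap. For Aldh1a2 the closest genes were Eif2ak3 (0.985), Snx6, Ube2r2, Zfp335os and Fam172a. For Aldh1a1 they were Ankrd44 (0.999), Nckap5, Cobll1, Wsb1 and Csrp1. Crabp2 was closest to Bmp4 (0.994), Capn1, Gpc5, Slc16a12 and Hmcn1, and Cyp26b1 to Mrrf (0.999), Cntnap5a, Ccser2, Dut and Sms-ps. These likenesses are descriptions over 6 libraries that share the treatment groups and the make-up of each tissue piece, and 161, 120 and 355 genes reached 0.9 with Aldh1a1, Aldh1a2 and Crabp1.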

How the data were processed

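RNA was measured in 3 saline and 3 PLEA libraries, grouped by their titles. The authors deposited raw counts per gene as whole numbers with no normalization, and gene length in bases beside them. How reads were aligned, counted and assigned to strands is not given in the sources used here. Per the submitters' processing notes the builds were GRCm38 and mm10, but only 2.85% of the 52088 genes found also in GENCODE M21 (a GRCm38 annotation; mitochondrial genes left out) had its start and end, so gene positions are printed as deposited with no build attached.

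The main test was edgeR's quasi-likelihood F test (version 4.0.16, R 4.3.3) after filterByExpr and TMM scaling, with group alone in the model. P-values were adjusted by Benjamini-Hochberg over all 17584 genes tested, with a threshold of 0.05. SE is the log2 fold change divided by the root of F. CPM uses the library total times the TMM factor, and correlations use a prior count of 2. The procedure was run on simulated data as a check of the code. How often it would find differences of the sizes described here is not given. At 16810448 counts or more per library, Aldh1a3, Crabp1 and Crabp2 still rested on 2 to 45 counts each, where counting error is large. Alternatives were DESeq2 1.42.0, limma 3.58.1 voom, other scaling factors and filters, a replicate block and leaving out each library. Similar transcripts were searched with BLASTN 2.17.0.

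The genes and lists were chosen with earlier results of these data known. Outside the 9 genes the text names all 6 receptors and, per list, up to 4 tested genes with the smallest p and up to 3 with the highest level per length, except genes that are not reported here, and the 5 genes most like each of several of the 9. Marker genes, Aldh1a7, Ccdc33 and C730002L08Rik are named where a value turns on them.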

Additional observations from a re-analysis of the deposited data

How the results depend on the processing

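Calls depended on the tool and the filter. edgeR called 0 genes higher and 0 lower, with 401 and 630 at an unadjusted p under 0.05, against 4 higher and 37 lower for DESeq2 and 7 higher and 31 lower for edgeR with no filter on low counts. Of the 9 genes, 0 were called lower in edgeR and 2 (Aldh1a1 and Aldh1a2) by DESeq2 and by edgeR without the filter, where their adjusted p was 0.0369 and 0.0133. Limma voom, RLE and upper-quartile factors and a CPM of at least 1 in 3 libraries gave 0 calls in each direction. The cause was not tested. Leaving out each library gave 0 to 0 genes higher, 0 to 1 lower (the 1 without saline replicate 1), 0 to 0 of the 9 called, and 4 to 5 of the 9 lower with no overlap, against 8% to 13.2% of all genes (7.68% to 14.7% higher), a check added after seeing the data.

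The replicate block also gave 0 and 0 calls. Same-numbered libraries deviated together with r of 0.37, 0.17 and -0.018 for replicates 1, 2 and 3. Saline replicates 1 and 2 were closest to the PLEA library of the same number, and saline replicate 3 to PLEA replicate 2 (0.23). The labels do not say whether libraries of equal number share a batch or day, and this was not tested. The log2 fold changes of Aldh1a1, Aldh1a2, Crabp2, Cyp26b1, Rdh10, Rbp4 and Crabp1 kept their sign in all 13 alternatives. Stra6 turned to 0.0097 with voom and 0.017 with the replicate block, and Hdac3 to 0.0044 with upper-quartile factors. Leaving out each library gave ranges across 0 for Stra6 (-0.28 to 0.42), Aldh1a3 (-1.05 to 0.31), Rarg (-0.26 to 0.16), Rxrg (-0.35 to 0.83), Ncoa1 (-0.11 to 0.0073), Rdh14 (-0.12 to 0.040), Tshz1 (-0.18 to 0.17) and Hdac3 (-0.064 to 0.037). Leaving out 1 library also took Rxra to -0.062, Meis2 to 0.029, Cyp2s1 to -0.27, Hic1 to -0.36, Dgat1 to 0.16, Rdh11 to -0.042 and Lrp2 to 0.53. Ttr passed without the filter (7.04, adjusted p = 0.0309), in edgeR.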
